A study of Homo sapiens with 4 samples.

Results

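MCAM, the melanoma cell adhesion molecule, was described with 9 other cell adhesion genes in VCaP cells transfected with an siRNA against ZBTB7A (siZBTB7A) or a non-targeting control siRNA (siNTC). The 10 genes were MCAM and ALCAM, CDH1 with the catenin genes CTNNB1, JUP, CTNNA1 and CTNND1, the junction receptor genes NECTIN2 and F11R, and ITGB1. MCAM was chosen by its reported repression by ZBTB7A and by its higher read count in the siZBTB7A library than in the siNTC library, and the other 9 were listed beside it with their values known. All 10 were matched by symbol to the identifiers of the count tables, out of 60308 identifiers per table, and all 10 were among the 12848 genes with enough reads to be tested. VCaP is an established human prostate cancer line with the TMPRSS2-ERG fusion, and both groups were grown in medium with 10% serum. ZBTB7A encodes a zinc finger protein known mainly as a transcriptional repressor.

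Epithelial cells hold together at adherens junctions, where the extracellular part of E-cadherin (CDH1) binds E-cadherin on the next cell. Inside the cell its tail binds beta-catenin (CTNNB1) or plakoglobin (JUP), which are linked to actin through alpha-catenin (CTNNA1). The CTNND1 protein, another catenin, binds nearer the membrane and limits the removal of the cadherin from the surface. Nectins and junctional adhesion molecules are immunoglobulin-like receptors of the same contacts, integrins bind the matrix, and MCAM and ALCAM are immunoglobulin-like adhesion receptors that are best known from melanoma, endothelium and leukocyte contacts.

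Each group had 2 count tables, and the 2 tables of a group agreed within the noise of read sampling. Chi-square per degree of freedom over genes with at least 20 reads was 0.995 in siZBTB7A (12645 genes) and 0.993 in siNTC (12762 genes), against 3.50 to 3.64 between tables of different groups. The 2 tables were therefore counted as 1 library per group, and no difference between the groups has a replicate check. Reads assigned to genes numbered 5556061 and 5745862 in the siZBTB7A tables and 5737738 and 5927656 in the siNTC tables. ZBTB7A itself, the check of the label, had 70 and 74 reads in siZBTB7A and 90 and 115 reads in siNTC, a fold of 0.743 (95% counting interval 0.596 to 0.924), and it did not pass the test across all genes. Luminal prostate markers had a summed level of 6151 and 6167 CPM (counts scaled to library size) in siZBTB7A and 5950 and 5877 CPM in siNTC. Most of this was KLK2, at 4023 CPM in siZBTB7A and 3931 CPM in siNTC. Of the 9 markers, 4 were called higher and 0 lower, beside 2.25% and 2.72% of all genes tested. Corrected for GC content and length, FOLH1 and SLC45A3 were still called and KLK2 and HOXB13 were not, and the fold of KLK2 was 1.02 before it. Of the 9 endothelial markers, which bear on MCAM as a gene also used to mark endothelium, 8 were matched, all but PECAM1. The 8 together had 9 reads in each library, with CDH5, TIE1, CLDN5, EMCN and ROBO4 at 0. Basal epithelial markers, 4 in all, had 18 reads in siZBTB7A and 21 in siNTC, with KRT5 at 0.

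The starting regions of MCAM and ALCAM are shown because these relatives had the highest and the lowest fold of the 10 genes. Both are the 250 bases before the annotated start, read 5′ to 3′ on the gene's own strand from the RefSeq promoter table (GRCh38.p14), at chr11:119317131-119317380 on the minus strand and chr3:105366659-105366908 on the plus strand. The capitals mark the letters GACCC or their reverse complement GGGTC, a short GC-rich string chosen because ZBTB7A is known to bind GC-rich DNA.
MCAM: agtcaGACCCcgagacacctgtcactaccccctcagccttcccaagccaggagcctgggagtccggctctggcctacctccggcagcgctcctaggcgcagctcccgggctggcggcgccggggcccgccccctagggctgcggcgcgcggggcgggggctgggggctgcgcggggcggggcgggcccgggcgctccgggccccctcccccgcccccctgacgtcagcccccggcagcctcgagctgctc
ALCAM: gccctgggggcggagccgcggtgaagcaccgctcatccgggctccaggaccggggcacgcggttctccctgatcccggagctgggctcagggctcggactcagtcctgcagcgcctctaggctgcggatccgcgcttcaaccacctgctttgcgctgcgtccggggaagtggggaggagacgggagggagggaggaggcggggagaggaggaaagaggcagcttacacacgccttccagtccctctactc

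Both windows were richer in G and C than most, at 79.6% in MCAM and 68.8% in ALCAM, against a median of 58% over the 35116 windows of the same length in the table. The MCAM window held 26 CG pairs and the ALCAM window 20, against a median of 11. GACCC occurred once in the MCAM window, 245 bases before the start, and was not found in the ALCAM window. It was present in 42.1% of all windows. The GC box letters GGGCGG, searched on both strands with overlapping matches counted, were found 5 times in the MCAM window, none of them overlapping GACCC, and 1 time in the ALCAM window. They were present in 42.6% of all windows. The letters CACCTG, an E-box of the kind that the SNAI and ZEB repressors bind, occurred 1 time in each of the 2 windows and were present in 17.5% of all. Promoter windows were given for 7 of the 10 genes, 12 windows in all, of which 5 held GACCC, 8 held GGGCGG and 3 held CACCTG.

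MCAM was the gene that stood out among the 10. It had 266 and 218 reads in the siZBTB7A tables, against 157 and 176 reads in the siNTC tables. Scaled to library size this was 48.6 and 38.6 CPM in siZBTB7A, against 27.1 and 29.4 CPM in siNTC. Both siZBTB7A tables lay above both siNTC tables, with 95% counting intervals of 43.0 to 54.9 CPM and 33.6 to 44.0 CPM in siZBTB7A. The lower of these intervals reached down into that of the second siNTC table (25.2 to 34.1 CPM). Over the summed tables MCAM was at 43.5 CPM in siZBTB7A and 28.3 CPM in siNTC, 1.54-fold (1.34 to 1.77; all intervals here are exact 95% intervals for counting error only). Without the first siZBTB7A table the fold was 1.36, and without the second it was 1.72. These values chose the gene, so they are given as a description and support nothing further.

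**Figure D1:**
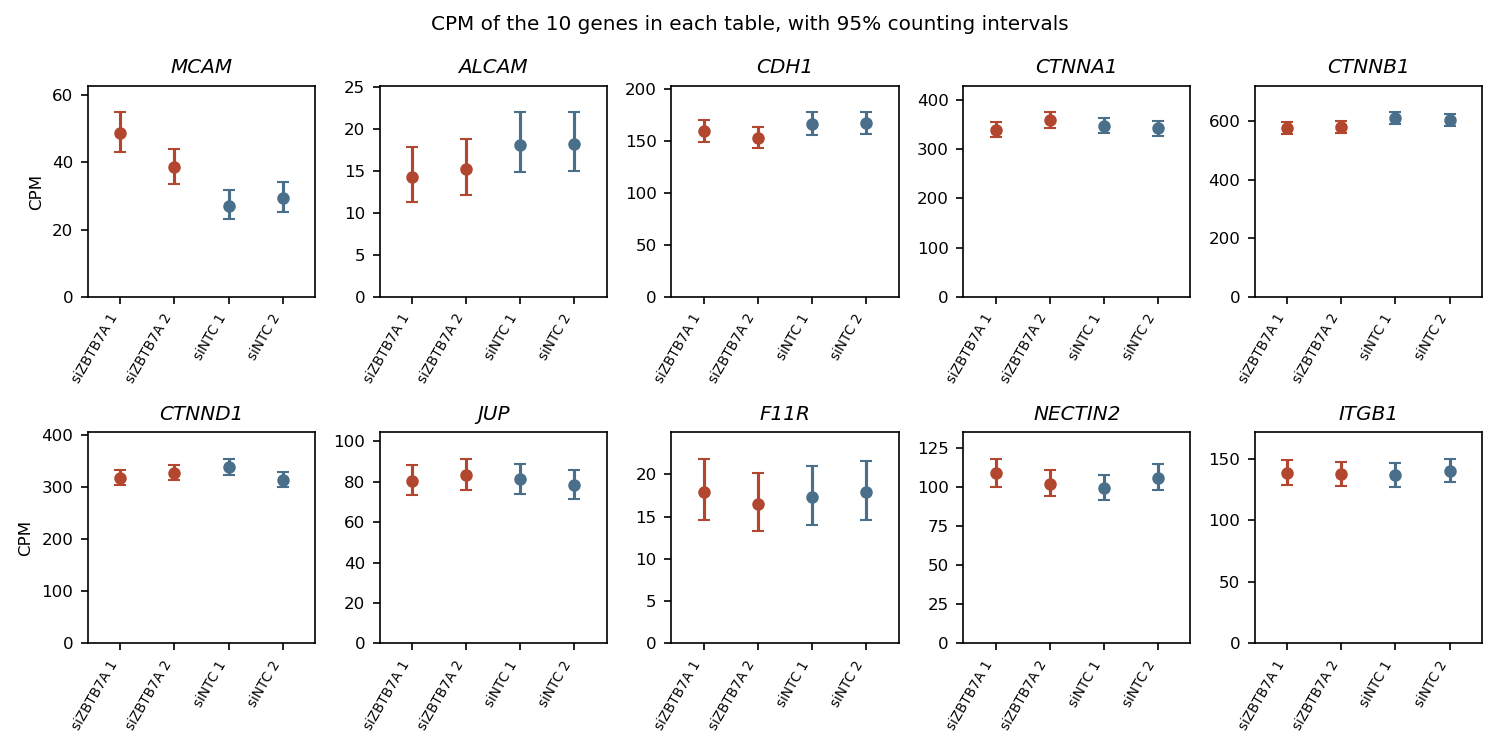
CPM of each of the 10 genes in the 2 siZBTB7A tables (red) and the 2 siNTC tables (blue), with exact 95% counting intervals; each panel starts at 0 and has its own scale. MCAM lies higher in both siZBTB7A tables, at 48.6 and 38.6 CPM, than in both siNTC tables, at 27.1 and 29.4 CPM, although the interval of the second siZBTB7A table (33.6 to 44.0 CPM) overlaps that of the second siNTC table (25.2 to 34.1 CPM).

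The rank of the MCAM fold is given as a description too, since a high fold was part of its choice. Of 12848 genes tested, 218 (1.7%), MCAM included, had a fold at least as high, 215 of them at a lower mean CPM. Among the 4725 protein-coding genes with a mean CPM at or above that of MCAM, 1 other gene did, the mitochondrially encoded MT-ND3, at 1.76 (1.56 to 1.99). MT-ND3, a subunit gene of respiratory complex I, was named after its value was seen. The genes most like MCAM, by the smallest difference in log2 fold among 4836 protein-coding genes within 2-fold of its mean CPM, were RAB15, CAMK1D, SIAH2, PLXNB3 and LARGE2. This likeness rests on 1 library per group. RAB15, a small GTPase of endosome recycling, was at 1.48 (1.21 to 1.81), and CAMK1D, a calcium/calmodulin-dependent kinase, at 1.48 (1.24 to 1.77). SIAH2, a ubiquitin ligase, was at 1.60 (1.33 to 1.94), the semaphorin receptor gene PLXNB3 at 1.62 (1.34 to 1.96), and LARGE2, a glycosyltransferase gene, at 1.45 (1.23 to 1.71).

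**Figure D2:**
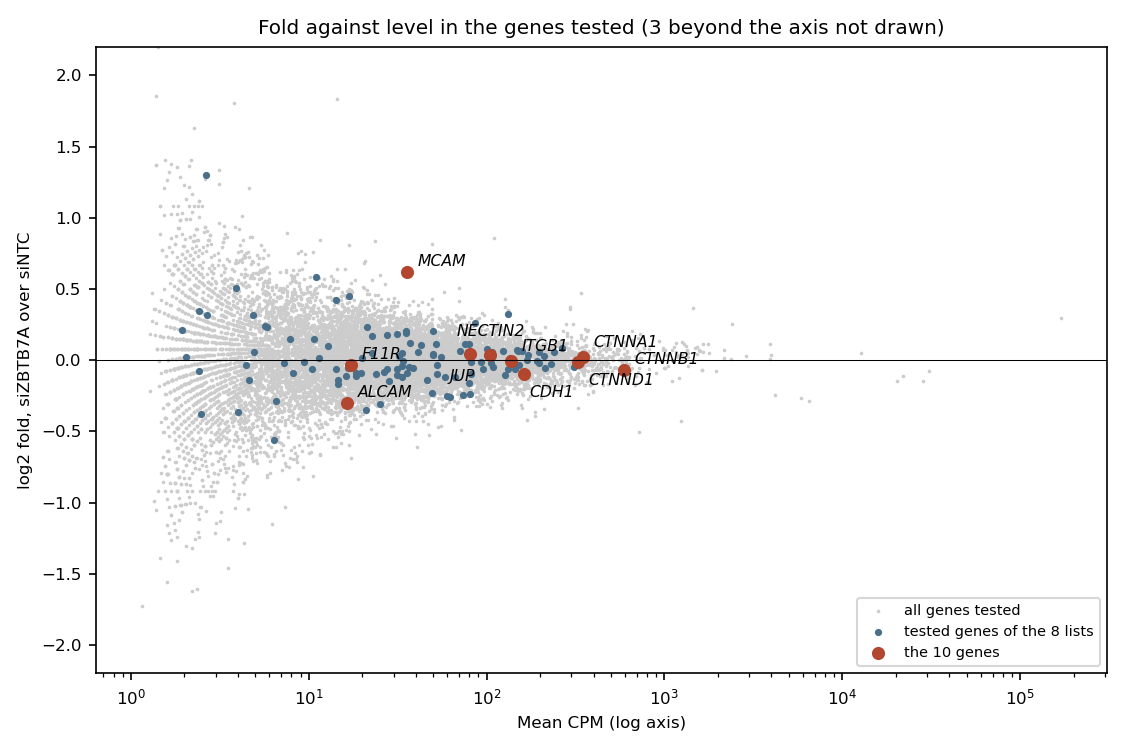
The log2 fold of siZBTB7A over siNTC (y axis) against the mean CPM (x axis, log scale) for the genes tested (grey; 3 lie beyond the axis), the tested genes of 8 adhesion and related lists (blue) and the 10 genes (red). MCAM lies at a log2 fold of 0.62, and ALCAM at -0.30 lies within the grey cloud.

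ALCAM, the closest relative of MCAM in the set, pointed the other way from fewer reads. It had 78 and 86 reads in the siZBTB7A tables, against 105 and 109 reads in the siNTC tables. This was 14.3 and 15.2 CPM in siZBTB7A, against 18.1 and 18.2 CPM in siNTC, so that both siZBTB7A tables lay below both siNTC tables. The fold was 0.811, with an interval of 0.658 to 0.999 that ended just short of 1, and 1013 of the 12848 genes tested, ALCAM included, had a fold at least as low. Per kilobase of transcript, MCAM exceeded ALCAM by 2.85 times in siZBTB7A (2.38 to 3.43) and by 1.50 times in siNTC (1.26 to 1.79).

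E-cadherin and its catenins lay close together, with folds between 0.937 and 1.03. CDH1 had 871 and 864 reads in the siZBTB7A tables, against 963 and 997 reads in the siNTC tables, which was 159 and 153 CPM in siZBTB7A and 166 and 167 CPM in siNTC. Its fold was 0.937, with an interval of 0.878 to 0.9998 that stopped at the edge of 1. CTNNB1, the most abundant of the 10 genes, had 3150 and 3265 reads in siZBTB7A, against 3520 and 3604 reads in siNTC. At 576 and 578 CPM in siZBTB7A and 608 and 603 CPM in siNTC, the tables of its groups did not overlap. Its fold was 0.953 (0.921 to 0.986).

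The other catenin genes had intervals that held 1. JUP, whose protein can take the place of beta-catenin at the cadherin tail, had 440 and 471 reads in siZBTB7A and 469 and 467 reads in siNTC, a fold of 1.03 (0.939 to 1.13). CTNNA1, the link to actin, had 1855 and 2024 reads in siZBTB7A and 2007 and 2042 reads in siNTC, a fold of 1.01 (0.970 to 1.06). CTNND1 had 1744 and 1857 reads in siZBTB7A and 1965 and 1882 reads in siNTC, a fold of 0.991 (0.946 to 1.04). For these 3 genes the tables of the groups overlapped once scaled to library size. Differences inside these intervals were not detectable at this depth.

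The receptors of the junction and the matrix also had intervals that held 1. NECTIN2, whose protein clusters with E-cadherin at forming contacts, had 595 and 577 reads in siZBTB7A and 575 and 633 reads in siNTC, a fold of 1.03 (0.947 to 1.11). F11R, which encodes junctional adhesion molecule A of the tight junction, had 98 and 93 reads in siZBTB7A and 100 and 107 reads in siNTC, a fold of 0.976 (0.798 to 1.19). With so few reads, its interval was the widest of those that held 1. ITGB1, the integrin beta subunit shared by many matrix receptors, had 757 and 775 reads in siZBTB7A and 790 and 837 reads in siNTC, a fold of 0.996 (0.929 to 1.07).

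**Figure D3:**
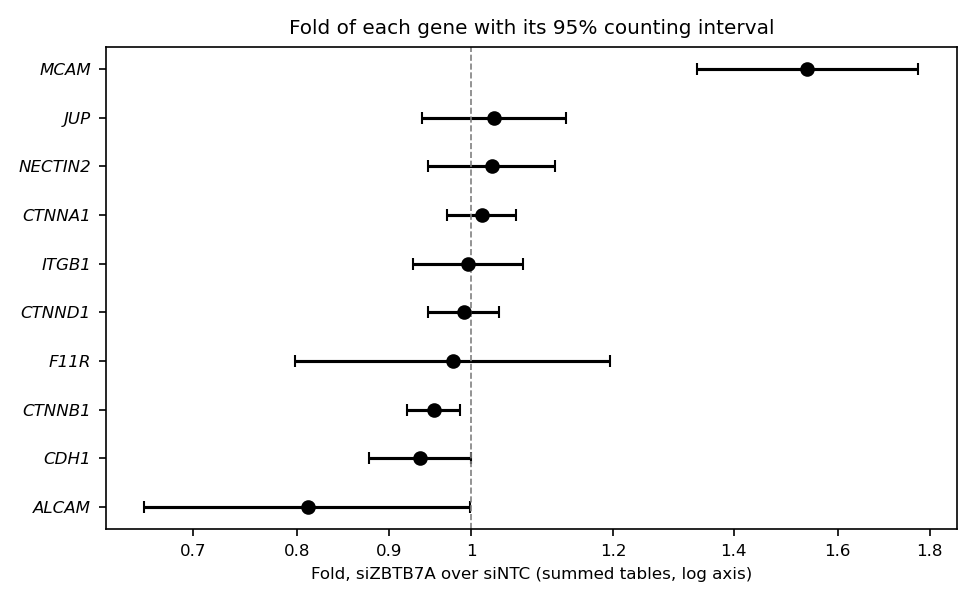
Fold of siZBTB7A over siNTC from the summed tables (x axis, log scale) for each of the 10 genes, with its exact 95% counting interval; the dashed line marks 1. MCAM at 1.54 is the only point above 1 whose interval leaves 1 out, and ALCAM, CDH1 and CTNNB1 have intervals that end below 1.

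Over the 10 genes, 4 folds lay above 1 and 6 below, with a median fold of 0.994, against a median of 1.001 over all genes tested, of which 50.2% lay above 1 and 49.8% below. The interval of MCAM lay above 1, those of ALCAM, CDH1 and CTNNB1 lay below 1, and those of the other 6 genes held 1. Over all genes tested, 17.1% had an interval that left out 1, 8.54% above and 8.52% below. The tables of the groups did not overlap for 4 of the 10 genes, MCAM higher and ALCAM, CDH1 and CTNNB1 lower, while this held for 46.9% of all genes tested, 23.5% higher and 23.4% lower. The edgeR fit across all genes called 4.97% of them, 2.25% higher and 2.72% lower, and of the 10 genes it called MCAM and none of the other 9. MCAM was also called in each alternative fit except DESeq2, which gave it no adjusted p. The members were listed with these values known, so nothing is read from the counts. In bulk RNA of this kind, fewer cells that express a gene and less RNA per cell cannot be told apart.

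The levels of the 10 genes were compared per kilobase of the longest transcript in the annotation, whether or not that is the form expressed. The order was led by CTNNB1, at 118 CPM per kilobase in siZBTB7A and 124 in siNTC, and CTNNA1, at 91.1 in siZBTB7A and 89.8 in siNTC. CTNND1 followed at 49.4 in siZBTB7A and 49.9 in siNTC, then NECTIN2 at 42.7 in siZBTB7A and 41.6 in siNTC, and ITGB1 at 36.4 in siZBTB7A and 36.5 in siNTC. CDH1 stood at 31.9 CPM per kilobase in siZBTB7A and 34.1 in siNTC. The gene for the cadherin was thus counted at 0.270 of the level of its partner CTNNB1 in siZBTB7A (0.256 to 0.285) and at 0.275 in siNTC (0.262 to 0.289). JUP, at 23.4 in siZBTB7A and 22.7 in siNTC, was at 0.199 of the CTNNB1 level in siZBTB7A (0.185 to 0.213) and 0.184 in siNTC (0.171 to 0.197). Ratios between genes depend on the length used, which their counting intervals do not cover. Per kilobase of all annotated exons, CTNNB1 was at 48.4 in siZBTB7A and 50.8 in siNTC. On that length CDH1 was at 25.3 in siZBTB7A and 27.0 in siNTC, and JUP at 16.6 in siZBTB7A and 16.1 in siNTC.

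MCAM, ALCAM and F11R had the lowest counted levels. MCAM was at 8.95 CPM per kilobase in siZBTB7A and 5.82 in siNTC, below JUP by 2.62 times in siZBTB7A (2.34 to 2.93) and 3.91 times in siNTC (3.45 to 4.45). Even with its higher level in siZBTB7A, MCAM was at 0.280 of the level of CDH1 there (0.253 to 0.310), against 0.171 in siNTC (0.152 to 0.192). ALCAM was at 3.14 CPM per kilobase in siZBTB7A and 3.87 in siNTC, and F11R at 3.55 in siZBTB7A and 3.64 in siNTC. The place of F11R in the order is not read, since 37.7% of its 50-base windows also belong to a gene at the same locus and reads from them are not counted for it. ITGB1 and CDH1 were also close in siNTC, at a ratio of 1.07 (1.004 to 1.15). With the length of all annotated exons in place of the longest transcript, CDH1 ranked above ITGB1 in siNTC.

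**Figure D4:**
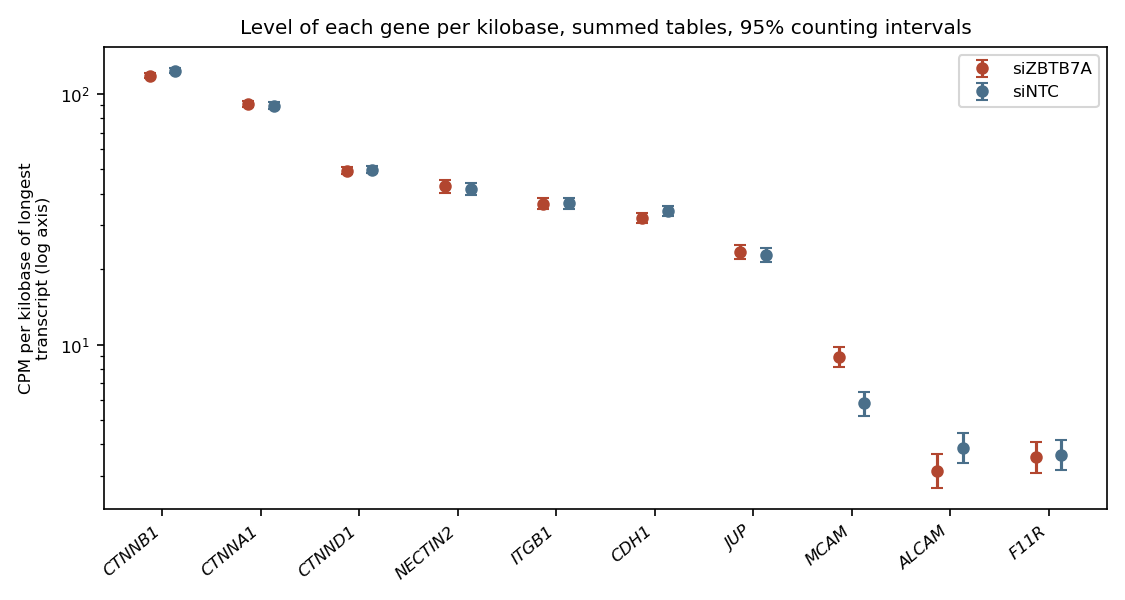
Level of each of the 10 genes in CPM per kilobase of its longest annotated transcript (y axis, log scale) in siZBTB7A (red, left) and siNTC (blue, right), from the summed tables with exact 95% counting intervals. CTNNB1 leads at 118 in siZBTB7A and 124 in siNTC, and MCAM, at 8.95 in siZBTB7A and 5.82 in siNTC, lies below JUP and above ALCAM, while F11R is shown without reads from the bases it shares with another gene.

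Sequence shared with other genes limited some of these counts, since reads that map to several places or overlap more than 1 gene on a strand are not assigned to a gene in this layout. In F11R, 36.6% of the annotated exon bases overlapped AL591806.3 on the same strand, a gene that itself had 1 read in the siZBTB7A tables and 2 in the siNTC tables. Reads from these bases are left out of the F11R count. In ITGB1, 15% of the 50-base windows of the longest transcript occurred in transcripts of AC022149.1 elsewhere in the genome, and 13.8% of the 100-base windows did. In MCAM 0.872% of the 50-base windows, and 0% of the 100-base windows, occurred in transcripts of genes elsewhere. MCAM also shared 6.86% of its exon bases with CBL on the opposite strand, which had 118 and 125 reads in siZBTB7A and 141 and 130 reads in siNTC. ALCAM, CTNNB1 and JUP had no shared window (0%) at either length. CTNND1 shared 3.65% of its exon bases with the read-through gene TMX2-CTNND1, which had 0 reads in all 4 tables.

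The wider adhesion machinery was read from 8 lists of adhesion and related genes. Of their 160 entries 112 were tested, 4 were called higher and 4 lower in the edgeR test of the 2 libraries, 7.14% in all beside 4.97% of all genes tested, with a median fold of 0.993. The test compares these libraries, not the conditions. Each list held 0, 1 or 2 called genes. Of the 8, BCAM and PKP1 were also called with a correction for GC content and transcript length. BCAM alone was called without each table in turn and with DESeq2, which gave CDH3 and TAGLN no adjusted p.

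Among the immunoglobulin-superfamily and other surface adhesion genes, 1 of 22 tested was called, beside 4.97% of all genes tested. It was BCAM, the basal cell adhesion molecule that binds laminin. BCAM had 830 and 793 reads in siZBTB7A and 658 and 714 reads in siNTC, and was higher by 1.25-fold (1.16 to 1.35). Like MCAM and ALCAM, it is an immunoglobulin-like receptor. Both siZBTB7A tables of BCAM lay above both siNTC tables, which held for 23.5% of all genes tested. The log2 fold of BCAM was 0.32, and 0.22 with the GC and length correction. The median fold of this list was 1.001, and its most abundant genes per kilobase were CD9, a tetraspanin, at 0.983 (0.931 to 1.04), and BSG, which encodes basigin, at 1.06 (1.01 to 1.12). Neither was called.

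The desmosome list, which holds the cadherins and linkers that anchor keratin filaments at cell contacts, had 2 of 11 tested genes called lower and none (0) higher, beside 2.72% and 2.25% of all genes tested. Neither was called with DESeq2. DSP, the gene of the keratin linker desmoplakin, had 282 and 350 reads in siZBTB7A and 425 and 375 reads in siNTC, at 0.836 (0.752 to 0.929). Its call was lost without the first siZBTB7A or the first siNTC table, and with the GC and length correction. PKP1, which encodes plakophilin 1, had 395 and 430 reads in siZBTB7A and 496 and 532 reads in siNTC, at 0.849 (0.774 to 0.932), and its call was lost without the first siZBTB7A or the second siNTC table. JUP, which belongs to desmosomes as well as adherens junctions, was at 1.03 as given above. The median fold of the list was 0.895, with 3 of 11 above 1.

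Of 16 tested genes of the cadherin and classical junction list, 1 was called, beside 4.97% of all genes tested. It was CDH3, the gene of P-cadherin. CDH3 had 66 and 81 reads in siZBTB7A and 57 and 47 reads in siNTC, at 1.50 (1.16 to 1.94), and lost its call without either siZBTB7A table, without the second siNTC table, with unstranded counts, with no filter on low counts, and with the GC and length correction. The most abundant genes of this list per kilobase, CTNNAL1, an alpha-catenin relative, at 1.05 (0.980 to 1.12), and ACTN4, an actin cross-linker, at 1.001 (0.940 to 1.07), were not called. The neural cadherin gene CDH2 had 2 reads in siZBTB7A and 5 in siNTC, too few to test.

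Of 23 tested tight junction genes, 1 was called lower, beside 2.72% of all genes tested. It was MPDZ, a scaffold gene, with 350 and 396 reads in siZBTB7A and 462 and 475 reads in siNTC, at 0.843 (0.764 to 0.929). It lost its call without the first siZBTB7A table, without either siNTC table, and with the GC and length correction. The claudin genes CLDN4 at 1.04 (0.982 to 1.11) and CLDN3 at 0.958 (0.825 to 1.11) were the most abundant of the list per kilobase and were not called.

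Of 10 tested integrin subunit genes other than ITGB1, 0 were called, beside 4.97% of all genes tested. ITGA6, the laminin receptor subunit, was at 0.929 (0.863 to 1) and ITGB5 at 1.04 (0.946 to 1.15). Of 22 tested integrin adaptor genes, 1 was called higher, beside 2.25% of all genes tested. It was GIT1, a scaffold of focal adhesions, with 500 and 540 reads in siZBTB7A and 450 and 470 reads in siNTC, at 1.20 (1.09 to 1.31). Its call was lost without the second siZBTB7A or the first siNTC table and with the GC and length correction. The partner gene ARHGEF7 at 1.04 (0.988 to 1.10) and the adaptor gene CRK at 0.956 (0.889 to 1.03) were the most abundant of the list per kilobase.

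Of 6 tested genes on the list of MCAM ligands and linkers to actin, 1 was called lower, beside 2.72% of all genes tested. It was the Wnt receptor gene FZD3, with 291 and 319 reads in siZBTB7A and 407 and 361 reads in siNTC, at 0.841 (0.755 to 0.936). It lost its call without either siZBTB7A table, without the first siNTC table, with no filter on low counts, and with the GC and length correction. LAMB1, a laminin chain gene, was at 0.968 (0.924 to 1.01), and EZR, the gene of the membrane-to-actin linker ezrin, at 1.05 (0.981 to 1.12). Of the MCAM ligand genes, LAMA4 had 6 reads in siZBTB7A and 2 in siNTC, and WNT5A had 104 reads in siZBTB7A and 111 in siNTC.

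Of 11 genes on the list of E-cadherin repressors and mesenchymal genes, 2 had enough reads to test. Of these 2, 1 was called higher, beside 2.25% of all genes tested. TAGLN, which encodes the actin-binding protein transgelin, was called from 27 and 15 reads in siZBTB7A and 9 and 9 reads in siNTC, at 2.47 (1.39 to 4.56). It lost its call without the first siZBTB7A table, without either siNTC table, with unstranded counts, and with the GC and length correction. FN1, the fibronectin gene, was at 0.949 (0.537 to 1.67). ZEB2, TWIST1 and TWIST2 had 0 reads, ZEB1 had 1 read in each library, and VIM had 4 reads in siZBTB7A and 2 in siNTC. LUM and ACTA2 were the tested ones among the matched markers of pericytes and fibroblasts, cells that also carry MCAM. Neither was called, at 0.856 (0.682 to 1.07) and 0.657 (0.344 to 1.22). RGS5 of the same list was left unmatched, since its symbol belongs to 2 identifiers. These were at log2 folds of 0.24 and -0.04, with a mean of 4.73 and 2.02 CPM. The 9 matched markers of that list together had 179 reads in siZBTB7A and 232 in siNTC, with CSPG4, COL1A2 and THY1 at 0.

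**Figure D5:**
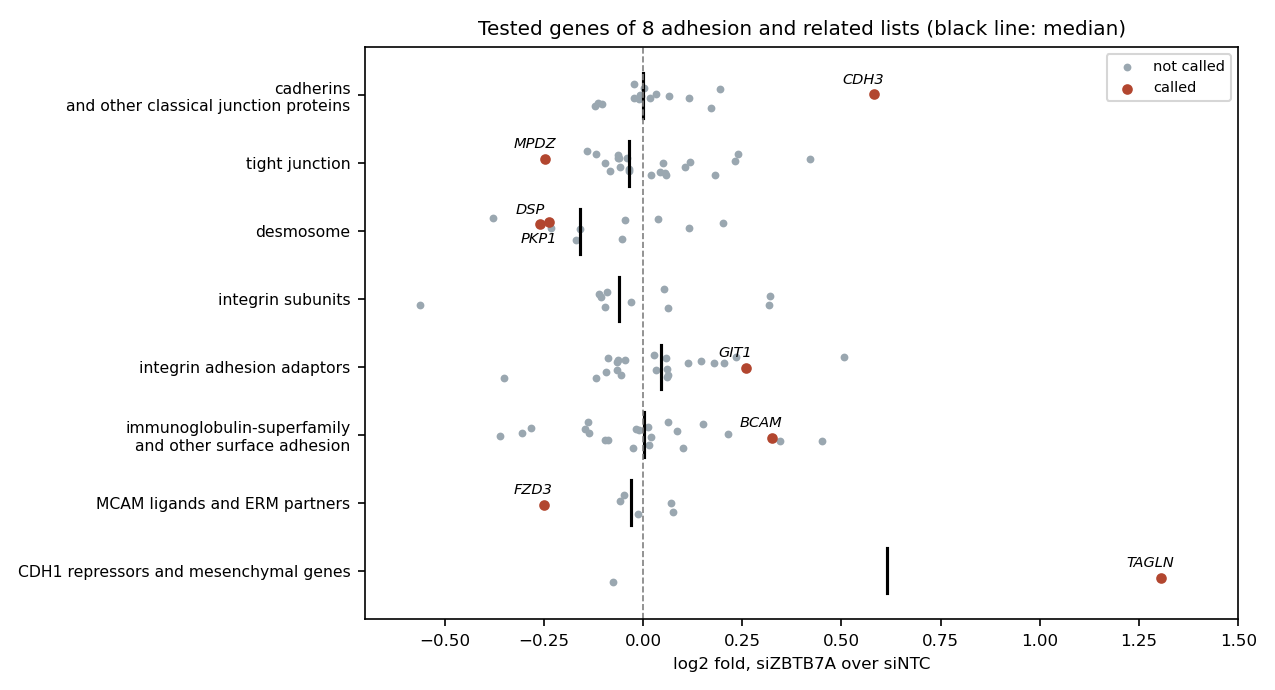
The log2 fold of siZBTB7A over siNTC (x axis) for each tested gene of 8 adhesion and related lists (rows), with genes called by edgeR in red and named, other genes in grey, and the median of each list as a black line; the vertical spread within a row has no meaning. The called genes are 4 higher (CDH3, GIT1, BCAM, TAGLN) and 4 lower (MPDZ, DSP, PKP1, FZD3), and the bottom row holds TAGLN and FN1 alone.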

How the data were processed

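Raw read counts per gene, with no normalization, were deposited by the authors as 1 table per sample in the layout of STAR gene counts. Per the submitters' processing notes STAR 2.4.2a and the builds hg19 and GRCh37 were used. The annotation they counted with is not stated. Per the labels' protocols the kit was stranded, and the count on the main strand was used, which exceeded the other by 24.9 to 25.5 times. The 4 rows that name no gene were left out. They held 50.8% to 51.2% of the reads. Among them, the row for reads on no annotated feature held 23.1% and 23.2% in the siZBTB7A tables. In the siNTC tables it held 20.6% and 20.6%. The cause of this difference between the libraries was not tested. GENCODE 29 supplied names for 55698 of 60308 identifiers, lengths and GC content. It is on another build, so no coordinates of the files are given.

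The test across genes was edgeR 4.0.16 in R 4.3.3 (quasi-likelihood, robust, TMM, filterByExpr, group as the only term, Benjamini-Hochberg adjusted p under 0.05), tested on simulated data. The simulated counts held read-sampling noise only and no variation between cultures. Of genes changed 1.25-fold in either direction 42.9% were called, of those changed 1.5-fold 63%, and of those changed 2-fold 87.3%. Folds came from the summed tables over TMM-adjusted totals, with Clopper-Pearson intervals, and CPM on the same totals. The labels do not say whether the tables came from separate cultures. The alternatives were DESeq2 1.42.0, its size factors, other low-count filters, total reads with and without mitochondrial genes, unstranded counts, a replicate block, leaving out each table, and a spline correction for GC content and length (99.5% of genes had both).

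The 10 genes and the lists (208 entries, 206 matched, 1 of them through a RefSeq synonym) were chosen with earlier results of these data known. Named beside them were up to 4 called genes per list, the 1 or 2 most abundant per kilobase where fewer than 2 were called, the 5 genes most like MCAM, and overlapping genes. CBL, CDH2, LAMA4, WNT5A, ZEB1, ZEB2, TWIST1, TWIST2, VIM, LUM, ACTA2, RGS5 and MT-ND3 were named after their values were seen. Intervals and summaries were computed in Python 3.11.15 (scipy 1.17.1, pandas 2.3.3).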

Additional observations from a re-analysis of the deposited data

How the results depend on the processing

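All 100 recomputed folds of the 10 genes, 10 alternatives each, lay inside the counting interval of the main value. For MCAM, ALCAM, CDH1 and CTNNB1 the direction held in 40 of 40, while in the 6 genes whose interval held 1 the direction changed in 16 of 60. The tables of MCAM, ALCAM, CDH1 and CTNNB1 do not overlap between the groups, so leaving out a table could not reverse their direction. The other alternatives reuse largely the same reads, and leaving out a table keeps the reads of the other tables. Neither the 40 of 40 nor the place of all 100 folds inside their intervals is therefore an independent check. The log2 fold of MCAM, 0.62, was between 0.59 and 0.64 under the scaling, strand, block and GC and length alternatives, and between 0.45 and 0.78 without each table in turn. The count of 639 genes called across the whole table was 362 with the GC and length correction, 89 with DESeq2, and 303 to 373 without each table in turn. The count of 8 called genes in the adhesion lists was 2 with the GC and length correction, 1 with DESeq2, and 2 to 6 without each table in turn. Fewer tables leave fewer reads, and otherwise the cause was not tested. DESeq2 gave no adjusted p for 8967 of the 12848 genes tested, and for 63 of the 112 tested genes of the lists. Tables with the same replicate number did not deviate together (r = -0.015 across 5461 genes, which are not independent replicates). Since the tables of a group differ by no more than read sampling, this cannot tell whether the numbers pair the tables. With the replicate block 654 genes and 8 list genes were called, and the log2 fold of MCAM was 0.62. Depth limits the folds of F11R and ALCAM most, with 191 and 164 reads in siZBTB7A and 207 and 214 in siNTC.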

Other observations

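Reads on the strand opposite to the 10 genes, which enter no comparison above except the one with unstranded counts, were few. They numbered 83 in the summed siZBTB7A tables and 92 in the summed siNTC tables. CTNND1 had 8 opposite-strand reads in siZBTB7A and 22 in siNTC, a fold of 0.385 (counting interval 0.148 to 0.898). For the other 9 genes the interval held 1 or, with 0 reads in a library, had no finite fold. MCAM had 3 opposite-strand reads in siZBTB7A and 8 in siNTC, where its overlapping neighbour CBL lies on that strand. For CDH1 the unstranded count was 94.5% of the stranded one in siZBTB7A and 93.0% in siNTC, and for NECTIN2 it was 96.0% in siZBTB7A and 95.9% in siNTC. These genes share 5.62% and 3.42% of their exon bases with the antisense genes AC099314.1 and AC011481.2. An unstranded count leaves out reads that overlap 2 genes. MCAM shares 6.86% of its exon bases with CBL on the opposite strand. Its unstranded count was 100.6% of the stranded one in siZBTB7A and 102.4% in siNTC. CTNNA1 shares 5.04% with LRRTM2 on the opposite strand and was at 100.1% in both libraries. Whether the overlaps account for the lower unstranded counts of CDH1 and NECTIN2 was not tested.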
